A study of Drosophila melanogaster with 12 samples.

Results

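Yp1, Yp2 and Yp3 encode the yolk proteins of Drosophila melanogaster, and each had a transcription unit of its own on the X chromosome in the annotation made for this study. They were found as the units whose gene names include Yp1, Yp2 or Yp3, which gave 3 of the 2399 units on X and of the 15991 units in all. Yp1 and Yp2 lay back to back, with starts 1175 bp apart on opposite strands, and Yp3 stood alone 3.70 Mb farther along the chromosome.

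The study profiled RNA polymerase II by mNET-seq, which sequences nascent RNA held by immunoprecipitated polymerase, in S2 cells, a cultured male fly line. Its 12 libraries form 6 groups of 2 replicates, one for each of control RNAi (GST in the titles), msl1 RNAi and mof RNAi and each of 2 polymerase profiles, all Pol II (Total) and Pol II whose C-terminal domain carries the serine 5 phosphate (Ser5p). By the design text the control and MSL1 cells were kept under RNAi for 2 days and the MOF cells for 4. The annotation carried a value for 0 of the 12 libraries, so polymerase on the yolk protein genes, its response to RNAi, the replicate error, the sequencing depth and the identity of the cells by their markers were not analysed here.

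Yolk proteins are made in the fat body and in the follicle cells of the ovary of adult females, secreted, and taken up by the growing oocyte through the receptor encoded by yolkless (yl). They are related in sequence to lipases. Their transcription in the fat body is a textbook output of the sex determination pathway, since the female form of Doublesex activates Yp1 and Yp2 and the male form represses them. The region between these genes is known to hold the fat body enhancer to which Doublesex binds. The X chromosome, on which all 3 genes lie, is bound in males by the MSL complex, which contains MSL1 and MOF.

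Yp1 (FBgn0004045) spanned 1688 bp on the plus strand, chrX:10053811-10055498 of the dm6 build. Yp2 (FBgn0005391) spanned 1686 bp on the minus strand, chrX:10050951-10052636. Yp3 (FBgn0004047) spanned 2002 bp on the plus strand, chrX:13759546-13761547. The lengths of Yp1 and Yp2 thus differed by 2 bp, while Yp3 was 314 bp longer than Yp1 (1.19-fold). All 3 units held 1 gene, as did 92.7% of X units. All 3 also had exactly the start and end of their gene in the RefSeq table, as did 99.0% of the 2220 X units of 1 matched gene, so the gene table is no independent check of these ends.

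The yolk protein units were shorter than the typical X unit. The median over X was 2242 bp, with quartiles at 1060.5 and 5453.5 bp, and all 3 members fell between the lower quartile and the median. Of X units, 39.7% were shorter than Yp2, 39.8% shorter than Yp1 and 45.7% shorter than Yp3. Each member listed 2 transcripts, and RefSeq gave each gene 2 transcripts and 2 proteins. Among the 1846 X units of 1 protein-coding gene the median was also 2 transcripts, and 27.8% of them had exactly 2.

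The bases between the start of Yp2 and the start of Yp1, chrX:10052637-10053810, numbered 1174. They made up 25.8% of the 4548 bp block from the end of Yp2 to the end of Yp1. No unit of the annotation and no gene of the RefSeq table touched them, on either strand. The starts of both genes therefore faced the same stretch of unannotated sequence.

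**Figure D1:**
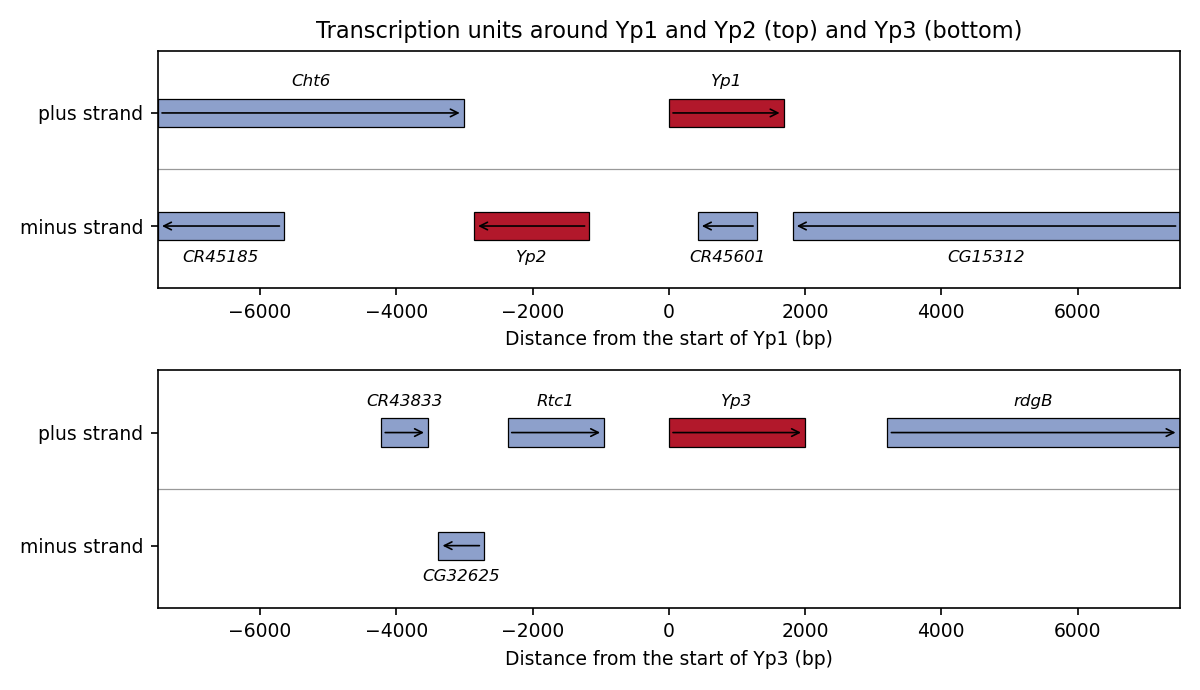
Transcription units around the start of Yp1 (top) and of Yp3 (bottom), by strand, with distance in bp on the horizontal axis; arrows run from start to end, and bars at the panel edge continue beyond it. Yp2 and Yp1 point away from each other with 1174 bases between them, CR45601 lies inside Yp1 on the other strand, and Yp3 is followed and preceded by units of its own strand.

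The Yp1 and Yp2 starts were far apart for a divergent pair. A divergent pair here is a minus-strand unit followed by a plus-strand unit with no other unit in the bases between. X held 482 such pairs with starts at most 5000 bp apart, and in these the median start distance was 427 bp, with quartiles at 230 and 872.75 bp. In 387 of the 482 pairs (80.3%) the starts were nearer to each other than those of Yp1 and Yp2. Of the 3 members, Yp1 and Yp2 lay in a divergent pair at most 2000 bp apart, an arrangement that 35.6% of X units had.

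In length the pair was more even than any other divergent pair of X within that distance. The difference of 2 bp between Yp1 and Yp2 stood beside a median difference of 2260.5 bp over the 482 pairs. The next most even pair was CG3342 and Spat, whose lengths of 1783 and 1779 bp differed by 4 bp. In 4 of the 482 pairs (0.83%) the lengths lay within 1% of the longer unit, and in 32 (6.64%) within 10%. This comparison was chosen after the lengths of Yp1 and Yp2 were seen, and it describes the annotated spans without a test.

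**Figure D2:**
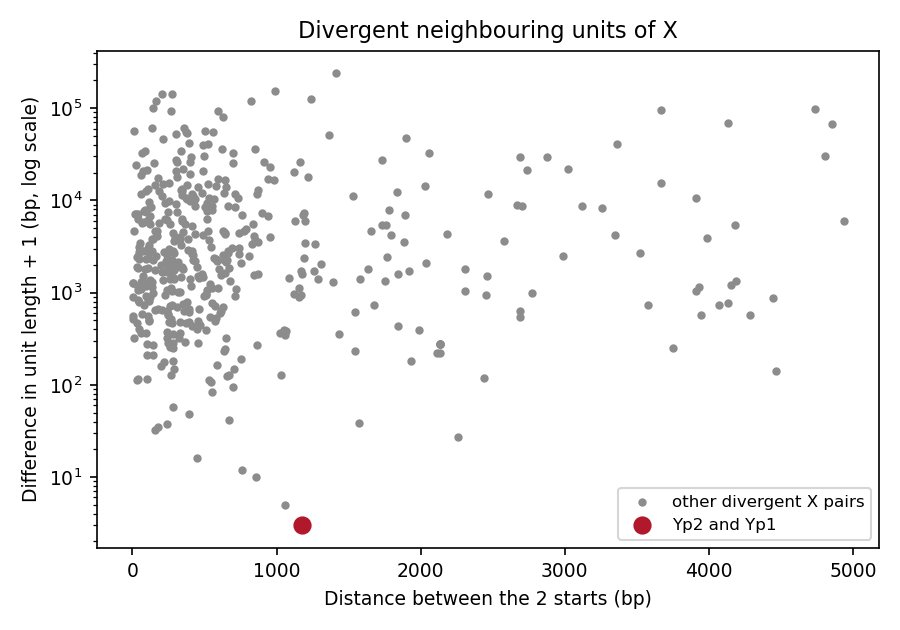
Each point is 1 of the 482 divergent neighbouring pairs of X, with the distance between the starts (bp) on the horizontal axis and the difference in unit length plus 1 bp on a log axis. The pair of Yp2 and Yp1 sits lowest, at a length difference of 2 bp, and to the right of most pairs, at 1175 bp.

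Beyond their ends, Yp1 and Yp2 met neighbours that ran toward them. Downstream of Yp2 lay Cht6, a chitinase gene of 33959 bp on the plus strand, whose end was 147 bp from the end of Yp2. Downstream of Yp1 lay CG15312, a unit of 15240 bp on the minus strand, whose end was 130 bp from the end of Yp1. These 2 gaps differed by 17 bp. Both gaps were shorter than the median of 217 bp over the 401 convergent neighbouring pairs of X, which exclude pairs that overlap. They were not unusually short, since 41.1% of those pairs were closer than Cht6 and Yp2 and 36.4% closer than Yp1 and CG15312.

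A divergent pair with convergent neighbours on both sides was found in 92 of the 482 divergent X pairs (19.1%). In 38 of the 482 (7.88%) both end-to-end gaps were also at most 200 bp, as they were for Yp1 and Yp2. Pairs with a unit overlapping either outer end stay in the 482 but were never counted, even where that unit ran toward the pair. Both shares are therefore of arrangements without such overlaps.

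Yp1 differed from Yp2 and Yp3 in having a unit inside it on the other strand. This was CR45601 (FBgn0267161), listed in RefSeq as an antisense RNA gene, with 1 transcript and 875 bp on the minus strand, chrX:10054235-10055109. It covered 51.8% of Yp1. Its start lay 389 bp inside the end of Yp1, and its end lay 424 bp inside the start of Yp1, so it reached neither end. It pointed toward Yp2 on the strand of Yp2, with 1598 bases between them. Neither Yp2 nor Yp3 was overlapped by another unit.

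Of the 3 members 1 was overlapped on the other strand by at least 1 bp, beside 38.6% of all X units. Of the 3 members 1 wholly held a unit of the other strand, beside 7.67% of all X units. Among X units of 1 protein-coding gene with lengths from 1000 to 3000 bp, the range that holds all 3 members, the share was 1.71% (13 of 762). In 10 of these 13 units, Yp1 included, the unit held was an antisense RNA gene. The share of the host covered ran from 12.7% in FucTC to 80.2% in Gr5a, with a median of 32.6%, and 4 hosts were covered more than Yp1. The labels name coverage summed over the strands among the outputs of each library, and in such a sum Yp1 and CR45601 could not be told apart over the 875 bp they share.

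Yp3 had a different setting from Yp1 and Yp2. It was the middle unit of 3 on the plus strand. Upstream lay Rtc1, named for RNA 3'-terminal phosphate cyclase, with 1420 bp, and 947 bases separated its end from the start of Yp3. Downstream lay rdgB (retinal degeneration B), which encodes a phosphatidylinositol transfer protein of photoreceptors, with 16737 bp and a start 1204 bases from the end of Yp3. Both gaps were longer than the median of 545 bp over the 883 same-strand neighbouring pairs of X, again without overlapping pairs. Of the 883, 62.5% were closer than Rtc1 and Yp3 and 66.1% closer than Yp3 and rdgB.

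Yp3 shared no divergent region. The nearest start upstream on the other strand was that of CG32625, 2720 bp from the start of Yp3, with Rtc1 between them. Past CG32625 came the antisense RNA gene CR43833, with 3532 bases to Yp3. On the other side, CtsB1, a cathepsin B gene, lay 18299 bases past the end of Yp3 and CG11103 20911 bases past it.

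**Figure D3:**
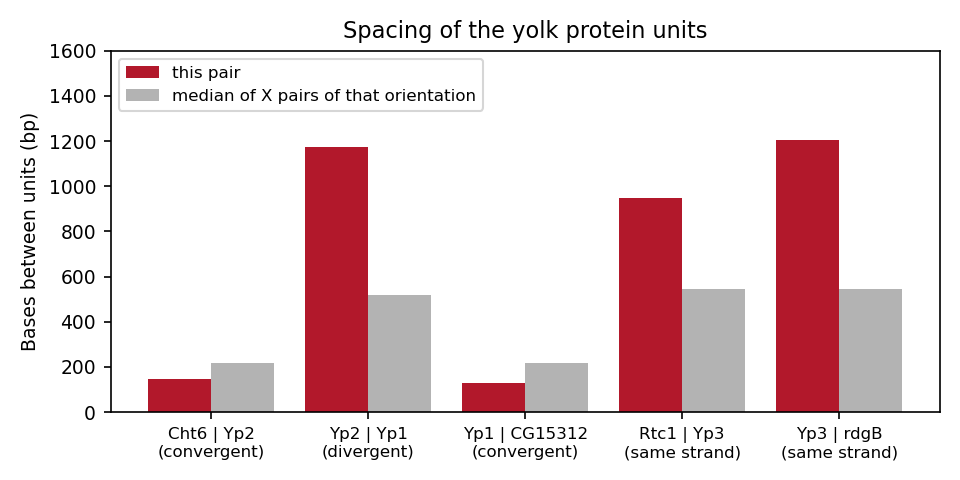
Bases between each yolk protein unit and its nearest non-overlapping neighbours (red), in bp. Grey bars give the median of all non-overlapping X neighbouring pairs of the same orientation. The end-to-end gaps of Yp1 and Yp2, 130 and 147 bp, are below their median of 217 bp, and the gaps of Yp2 to Yp1 (1174 bp) and around Yp3 (947 and 1204 bp) are above theirs of 518 and 545 bp.

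The neighbourhoods of the members were about as crowded as the rest of X. Besides the members, 7 units lay within 20 kb of the Yp1 and Yp2 block and 9 within 20 kb of Yp3. Counted for each unit alone, Yp1 and Yp2 each had 8 other units within 20 kb and Yp3 had 9, beside a median of 8 and quartiles of 5 and 11 over all X units. Of the smaller units near Yp1 and Yp2, some were nested in the long neighbours. The antisense RNA gene CR45185 (3248 bp) lay inside the span of Cht6, 2794 bases from the end of Yp2. Gr9a, a gustatory receptor gene of 1159 bp, lay inside the span of CG15312, 6128 bases from the end of Yp1. Farther out were CR45602, a long non-coding RNA gene 15892 bases from Yp1, and CG2990, named Dna2 in RefSeq, 36671 bases from Yp2.

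Between Yp1 and Yp3 lay 3704047 bases, and between Yp2 and Yp3 3706909. This stretch held 396 whole units with 442 genes, which was 16.5% of X units, 207 of them on the plus strand and 189 on the minus strand. The units between had a median length of 2492 bp. Yp1 and Yp3 lay on the same strand, and Yp2 was the only one of the 3 on the minus strand.

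Most genes of yolk uptake and of yolk protein control had longer units than the yolk protein genes. The list of 12 held the receptor gene yl, the sex determination genes Sxl, tra, tra2, dsx and ix, the hormone receptor genes EcR, usp, Met and gce, the GATA factor gene srp, and slbo, a C/EBP gene of follicle cells. All 12 had a unit, with a median length of 12337.5 bp beside 1688 bp for the yolk protein units. Another gene was named in 6 of the 12 units and in none of the yolk protein units. The lengths in the list can therefore measure more than the listed genes. Of the 12 units, 10 were longer than every yolk protein unit, as were 54.2% of X units and 46.4% of those of X and the 4 long autosomal arms together. The exceptions were tra, with 992 bp, and ix, whose protein works with female Doublesex, with 727 bp. Both units named 1 gene. The other units of 1 gene, those of dsx, gce (21309 bp), Met (5157 bp) and slbo (2786 bp), were longer than every yolk protein unit. The unit of dsx, whose product Doublesex acts on Yp1 and Yp2, spanned 43086 bp on 3R. That of EcR, the ecdysone receptor gene, spanned 81215 bp on 2R and also named 6 tRNA genes.

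Of the 12 genes, 5 lay on X with the yolk protein genes, beside 2399 of all 15991 units. The list was chosen by hand, and this count was not tested. The unit of yl spanned 6745 bp on the plus strand, chrX:14193214-14199958, and also named mir-4917. It lay 431666 bases from Yp3, which made it the nearest of the 5 to any yolk protein unit. The next nearest were gce, 1.54 Mb from Yp3, and Met, 1.56 Mb from Yp1 and 2.14 Mb from Yp3, both of which encode juvenile hormone receptors. Sxl lay 2.96 Mb and usp, whose product is the partner of the ecdysone receptor, 8.01 Mb from Yp1 on the other side. The usp gene shared its unit with Actn and mir-4954, so that unit measures more than usp.

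Another gene was named in 6 of the 12 units and in 0 of the 3 yolk protein units, beside 7.15% of all units, so the members' count is that of most units. A unit of the other strand overlapped 6 of the 12, from 7 bp in tra2 to 2912 bp in gce, and 1 of the 3 yolk protein units, Yp1, by 875 bp. Over X and the 4 large autosomal arms 39.4% of units were overlapped. The median number of transcripts was 5 in the list and 2 in the members, counted over all genes named in a unit. Units with another gene can thus count transcripts of that gene too. Of the list's units that named 1 gene, dsx had 6 transcripts, gce 4, tra, slbo and Met 2 each, and ix 1. These are counts over an annotation and carry no test.

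**Figure D4:**
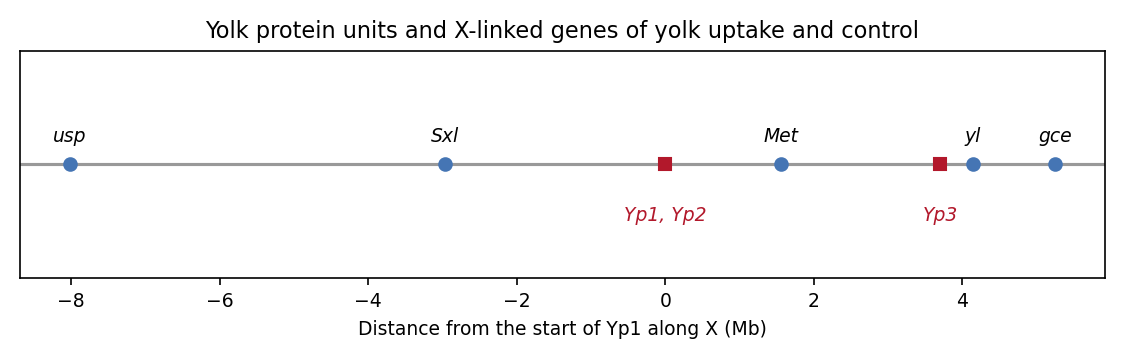
Order along X of the yolk protein units (red squares) and of the 5 X-linked genes of the list (blue points, at the middle of their unit), in Mb from the start of Yp1. Yp3 lies 3.70 Mb from Yp1, with Met between them, and yl is the nearest listed gene to Yp3.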

How the data were processed

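The deposited file analysed was the authors' annotation of transcription units on the dm6 build. Its values are start and end positions in bp (unit "other"), and its score field is empty. Per the file header it was written with rtracklayer 1.48.0; no source used here states the rule for merging genes. Per the submitters' processing notes, reads went through cutadapt 2.8, STAR 2.7.4a and SAMtools 1.20.

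Members were matched by gene name, and single-gene units to the RefSeq gene table of Release 6 by symbol, synonym or locus tag. Gaps count the bases between units, start distances are differences of start positions, and an overlap is at least 1 bp. Neighbouring pairs do not overlap and have no other unit in the bases between them. The code for overlaps and neighbouring pairs was tested on 2000 simulated units against pairwise comparison (0 mismatches). The other steps, such as name matching, were not tested in this way. All steps ran under Python 3.11.15 with pandas 2.3.3, NumPy 2.4.6, Matplotlib 3.10.9 and SciPy 1.17.1. Percentages are complete counts, so no test is given.

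The members and lists were chosen with earlier results of these data known. Named genes are the members, units overlapping them, the 3 nearest units on each side, the 12 genes of the list, and divergent X pairs with like products, for which like names stand in; others were named after their values were seen. Protein identity, like proteins and promoter motifs were planned but left out, since sequences were not used here.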

Additional observations from a re-analysis of the deposited data

How the results depend on the processing

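No paired analysis was possible because the annotation carries no library values, and leaving out a replicate was likewise not possible. Starts and spans from RefSeq left the 1175 bp between the Yp1 and Yp2 starts, the distance to Yp3 and the median length as they were. That outcome was fixed in advance, since each member has the same span in RefSeq. Counted by nearest edges the first was 1174 bp, and from start to start Yp2 and Yp3 were 3706910 bp apart. On the same strand alone the nearest unit was 3007 bases from Yp1 in place of 0 and 1598 from Yp2 in place of 147. The share of units shorter than the median member, 39.8% on X, was 34.1% among X units of 1 protein-coding gene, 46.9% over X and the 4 large autosomal arms, and 42.6% among X units of 1 gene. Within 10 kb there were 5 units at each locus, and within 50 kb 13 around Yp1 and Yp2 and 19 around Yp3. Among divergent X pairs at most 2000 bp apart, 90.6% had nearer starts than Yp1 and Yp2, in place of 80.3% up to 5000 bp and 81.2% with the autosomal arms added, and over all 542 divergent X pairs 71.4% had fewer bases between their units. These changes follow from which units or bases each setting counts. The share of X units that wholly hold a unit of the other strand was 6.18% among units of 1 protein-coding gene. Leaving out each member in turn gave median lengths from 1687 to 1845 bp. The settings for units of 1 gene, for a member left out, for units held and for like names were chosen after seeing the data. Of 18 settings listed at the outset, 6 were not run because they need protein or promoter sequences.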

Other observations

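Symbols give a rough view of where neighbouring genes with like names lie. Neighbouring units of 1 protein-coding gene each, at most 2000 bp apart, were counted as named alike where both symbols open with the same letters (at least 2) before the first number. Symbols of the CG and CR series were never counted as alike, and their pairs stay in the totals, so the counts do not measure gene families. On X the divergent pairs named alike were 4 of 307. They were Yp2 and Yp1, Ir7f and Ir7g with starts 634 bp apart, Obp19c and Obp19d with starts 649 bp apart, and Cyp311a1 and Cyp318a1 with starts 1167 bp apart. Ir genes encode ionotropic receptors, Obp genes odorant-binding proteins and Cyp genes cytochromes P450. The lengths of Ir7f and Ir7g differed by 229 bp and those of Obp19c and Obp19d by 323 bp. Those of Cyp311a1 and Cyp318a1 differed by 940 bp, and those of Yp2 and Yp1 by 2 bp.

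On X and the 4 large autosomal arms the rule found 61 of 1964 divergent pairs (3.11%), 192 of 3025 same-strand pairs (6.35%) and 50 of 1222 convergent pairs (4.09%). A narrower rule, which allows at most 2 letters after the number and so leaves out Cyp311a1 and Cyp318a1, found 34, 142 and 22. The counts thus depend on how names are compared, and the shares were not tested against each other. Both rules were chosen after the data were seen.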
